A study of Mus musculus with 6 samples.

Results

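A set of Sertoli cell regulators, hormones and receptors was followed across the cells of adult mouse testis and between mice exposed to cigarette smoke and control mice. The 9 genes, Inha, Inhbb, Dhh, Kitl, Fshr, Amhr2, Gata4, Wt1 and Sox9, were taken by symbol from the 30905 genes of the count tables, and each symbol matched 1 gene. ICR mice, an outbred stock, gave 3 libraries labelled control and 3 labelled smoking. Per the labels' protocols the animals arrived 6 weeks old and, after 1 week of adaptation, spent 30 minutes a day in a chamber for 12 weeks. The chamber held the smoke of 15 cigarettes per session for the smoking group (1.1 mg nicotine and 11 mg tar per cigarette, 3.47 mg/m3 of particles) and no smoke for the control group. The age label of 8 weeks differs from that schedule. There were 7 mice per group, and the labels do not tie a library to a mouse, so the p-values measure only the spread between libraries. All animals were male, and the left testis was taken. The study asked which changes in the testis and in sperm formation follow passive smoking.

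Sertoli cells line the seminiferous tubule and nurse the germ cells. They receive follicle stimulating hormone from the pituitary through Fshr and return inhibin, a dimer of the Inha product with a beta subunit such as that of Inhbb, which lowers the secretion of that hormone. They also send Dhh (desert hedgehog) and Kitl (the ligand of the KIT receptor) to neighbouring cells, and Gata4, Wt1 and Sox9 are transcription factors that set up and keep their identity, while Amhr2 is the receptor of anti-Müllerian hormone.

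The droplet libraries held between 39607204 and 78455606 unique molecular identifiers (UMIs, each marking 1 captured RNA molecule), with 40675108, 39607204 and 54915594 for controls 1 to 3 and 55751481, 65728120 and 78455606 for smoking libraries 1 to 3. Of 54253 deposited barcodes 47963 were retained, between 7708 and 8632 per library, and any pair of libraries shared 16 to 34 barcode sequences. Barcodes were clustered without the 9 genes and named from marker lists, so the names are rebuilt and carry the word "like". The Sertoli-like class held 4644 barcodes, the Leydig-like class 404, and the stromal-like class (279 mesenchymal-like and 123 peritubular myoid-like) 402; 28729 barcodes stayed unnamed. All 12 Sertoli cell markers, all 9 Leydig cell markers and all 9 mesenchymal markers were more than 2-fold higher in their own class than in the rest, as were 7 of 8 peritubular myoid markers. The same lists named the clusters, so these counts describe the classes and do not test their names. Of the Sertoli-like clusters only 1, with 63 barcodes, passed all 12 Sertoli cell markers at naming, and the larger ones passed fewer.

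The genes differed in the classes that held them. Amhr2 and Inha were high in both Sertoli-like and Leydig-like barcodes, whereas Inhbb and Sox9 were highest in Sertoli-like barcodes and near 0 in Leydig-like ones. Gata4, Wt1 and Kitl reached their highest mean level outside the Sertoli-like class, in Leydig-like barcodes for Gata4 and in endothelial-like barcodes for Wt1 and Kitl. The classes mix deep and low-UMI barcodes in unlike parts. In the deepest Sertoli-like cluster, 63 barcodes described below, Gata4 and Wt1 averaged 55.2 and 279 CPM, above those class means. Kitl, at 124 CPM there, stayed below its endothelial-like mean. Dhh led in the Sertoli-like class among named classes, yet most of its UMIs lay in unnamed barcodes, and Fshr gave too few UMIs to place. Levels are in CPM, the UMIs of a gene per 1000000 UMIs of the class, and are descriptions, with no test between classes.

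**Figure D1:**
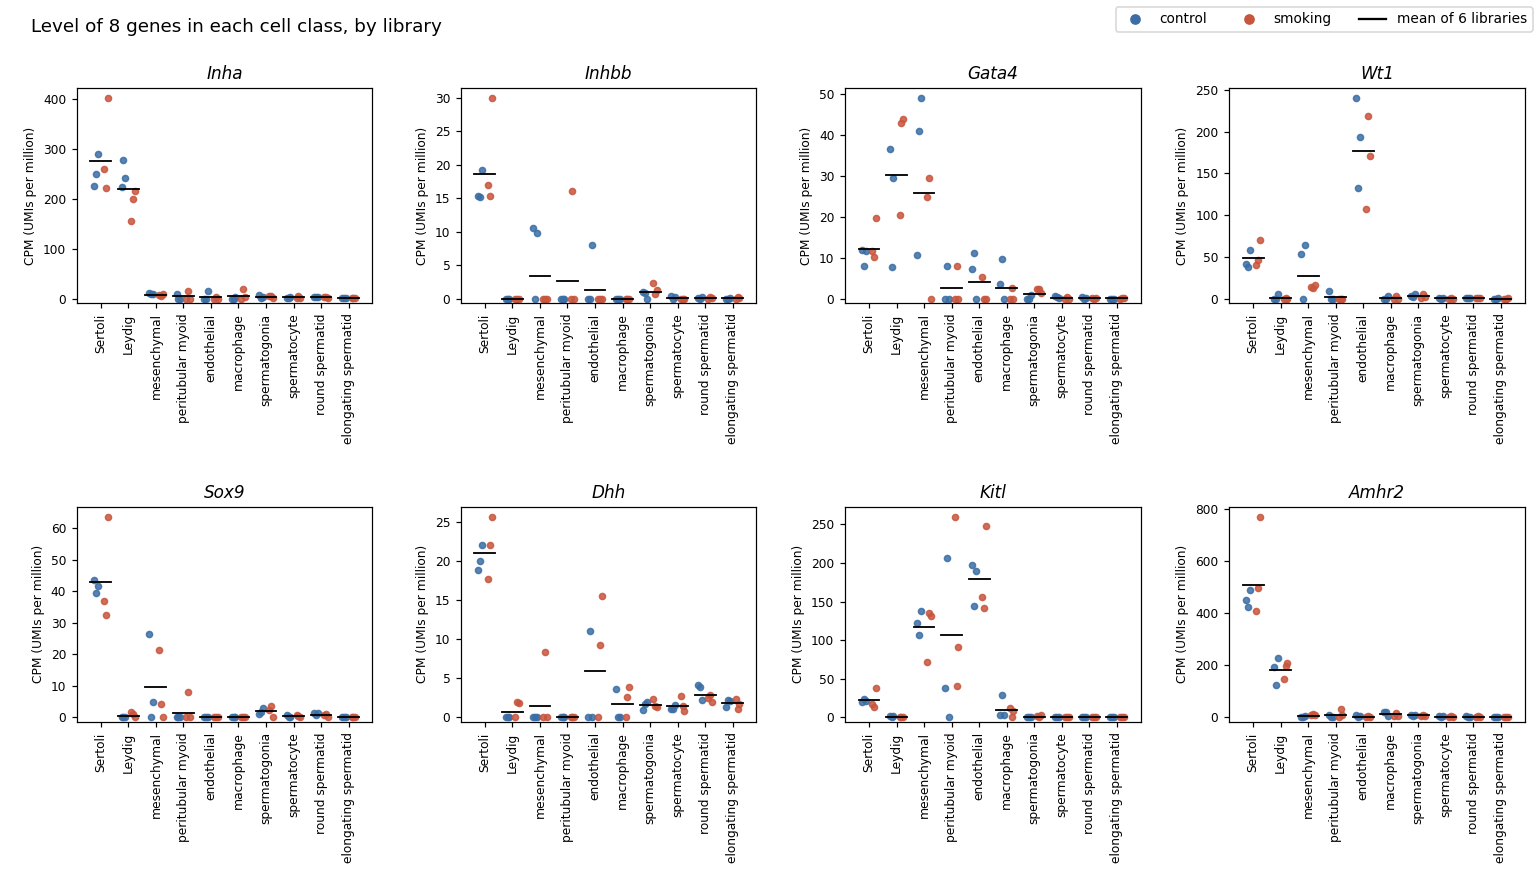
Level of 8 genes (CPM, linear axis) in 10 cell classes. Each point is 1 library, blue for control and red for smoking, and the black line is the mean of 6 libraries. Amhr2 and Inha stand high in the Sertoli-like and Leydig-like columns, and Wt1 and Kitl in the endothelial-like column.

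The 250 bases before the RefSeq start of 3 genes (GRCm38.p6) are shown because these genes differ in the cells that hold their UMIs: Amhr2 in Sertoli-like and Leydig-like barcodes (chr15:102445117-102445366, plus strand), Inhbb in Sertoli-like but not Leydig-like barcodes (chr1:119422249-119422498, minus strand), and Dhh in Sertoli-like and unnamed barcodes (chr15:98898541-98898790, minus strand). RefSeq promoters were matched for 6 of the 9 genes. Capitals mark matches, on either strand, to AAGGNCA (the half-site of nuclear receptors such as the Nr5a1 product) or GATAA (a site of the family that Gata4 belongs to).
Amhr2: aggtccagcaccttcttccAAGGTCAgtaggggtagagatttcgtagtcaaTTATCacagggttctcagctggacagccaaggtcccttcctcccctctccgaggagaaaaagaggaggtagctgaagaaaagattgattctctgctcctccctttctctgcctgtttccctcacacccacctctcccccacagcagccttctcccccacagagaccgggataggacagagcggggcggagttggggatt
Inhbb: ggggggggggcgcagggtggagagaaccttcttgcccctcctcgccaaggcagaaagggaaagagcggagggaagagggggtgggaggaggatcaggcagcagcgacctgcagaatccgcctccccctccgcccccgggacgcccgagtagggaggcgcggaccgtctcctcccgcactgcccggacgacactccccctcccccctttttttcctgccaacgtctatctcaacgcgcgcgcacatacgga
Dhh: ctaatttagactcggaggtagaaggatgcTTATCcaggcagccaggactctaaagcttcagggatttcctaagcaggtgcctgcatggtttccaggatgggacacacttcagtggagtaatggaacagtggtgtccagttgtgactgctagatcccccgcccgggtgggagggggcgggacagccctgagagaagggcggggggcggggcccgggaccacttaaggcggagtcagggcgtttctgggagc
The Amhr2 window held 1 AAGGNCA match starting 231 bases before the start and 1 GATAA match on the other strand at 199 bases. The Dhh window held 1 GATAA match, on the other strand at 221 bases, and the Inhbb window, with 68% G and C, held neither. No matches overlapped. Of 32851 promoters searched over the same 250 bases, 17.5% held AAGGNCA and 22.6% held GATAA, and 17.8% held the cyclic AMP half-site TGACG, which none of these 3 windows held. Of the other matched genes, Inha, also high in Sertoli-like and Leydig-like barcodes, held none of these motifs. Kitl held none either, and Fshr held 2 GATAA matches. A match is a description of letters only, and its relation to the classes was not tested.

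Inha encodes the inhibin alpha subunit (ENSMUSG00000032968, chr1:75507077-75510366 on mm10, plus strand). In Sertoli-like barcodes it stood at 225, 249 and 290 CPM in the controls (1 to 3, in order) and at 259, 222 and 402 CPM in the smoking libraries. In Leydig-like barcodes it stood at 224, 278 and 242 CPM in controls and 156, 199 and 216 CPM in smoking libraries. The class means, 275 ± 67.0 and 219 ± 41.3 CPM (SD, n = 6), lay within the spread of the libraries, and the Sertoli-like level was the higher in 5 of 6. These means do not compare barcodes of like depth. The deepest Sertoli-like cluster, described below, gave 5.32% to 13.3% of Sertoli-like UMIs, and deep Leydig-like barcodes gave 46.5% to 89.8% of Leydig-like UMIs. Inha stood at 1112 ± 159 CPM in that cluster and at 309 ± 94.2 CPM in the deep Leydig-like barcodes. Every other named class averaged at most 8.03 CPM, the mesenchymal-like mean. After each barcode was thinned to 1500 UMIs, 21.8% of Sertoli-like and 14.9% of Leydig-like barcodes held an Inha UMI, against 0.625% of round spermatid-like barcodes, taken as the background of free RNA. Without thinning the Sertoli-like and round spermatid-like shares were 34.9% and 2.19% (median depths 2466 and 3522 UMIs).

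Inhbb encodes the beta B subunit that Inha pairs with to form inhibin B (ENSMUSG00000037035, chr1:119415465-119422248, minus strand). Its Sertoli-like level was 15.3, 15.1 and 19.1 CPM in controls and 16.9, 15.2 and 29.9 CPM in smoking libraries. All 6 exceeded the highest mesenchymal-like library, 3 of them lay below a peritubular myoid-like library at 16.0 CPM (2 UMIs in all of that class), and the mean of 18.6 ± 5.76 CPM rested on 284 UMIs. Among the 3335627 UMIs of Leydig-like barcodes there was none, which allows up to 0.899 CPM at 3 counts, so the Sertoli-like level over 6 libraries, 17.9 CPM, was at least 19.9-fold higher. The Inha and Inhbb patterns thus parted in Leydig-like barcodes, where the alpha subunit was read and the beta B subunit was not. Inhba, the other common beta subunit, had 0 UMIs in Sertoli-like barcodes and 27.7 ± 4.14 CPM (SD, n = 6) in mesenchymal-like ones.

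Dhh encodes the hedgehog ligand of the tubule (ENSMUSG00000023000, chr15:98891152-98898540, minus strand). The Sertoli-like level was 18.8, 20.03 and 22.0 CPM in controls and 17.8, 22.1 and 25.7 CPM in smoking libraries, all above the highest library of any other named class. Yet Sertoli-like barcodes held only 15.9% of the 2110 Dhh UMIs, and 1411 lay in unnamed barcodes.

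Of those, 900 fell in 1 unnamed cluster of 2393 barcodes, whose leading genes were Ung, Tbx5 and Gm37748. There Dhh reached 121, 111 and 125 CPM in controls and 140, 92.4 and 163 CPM in smoking libraries. In the deepest Sertoli-like cluster, described below, Dhh was lower than this in 5 of 6 libraries, and in smoking library 2 it was higher, at 111 CPM. In 6 of 6 libraries the level in the cluster exceeded that in Sertoli-like barcodes. Thinned to 1500 UMIs, 15.7% of the cluster's barcodes held a Dhh UMI, against 2.37% of Sertoli-like and 0.625% of round spermatid-like barcodes. In the same cluster Amhr2 was at 13.7 CPM, Inha at 3.13 CPM and Inhbb at 0 of 7355168 UMIs, and its median mitochondrial share was 0.114% against 6.00% in Sertoli-like barcodes. The cluster was singled out after its values were seen and is given by its leading genes only.

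Dhh shares 3389 bases of its end with Rhebl1, on the same strand, and 1825 bases with the antisense gene Gm49442, which was not analysed here. Rhebl1 was at 1.496 CPM in the cluster with 122 CPM of Dhh (6 libraries summed) and at 2.80 ± 1.53 CPM (SD, n = 6) in Sertoli-like barcodes. No source used here states whether counting used strand, so reads of the antisense gene cannot be told apart. A further 177 Dhh UMIs were in round spermatid-like and 129 in elongating spermatid-like barcodes, at 2.92 ± 0.883 and 1.801 ± 0.496 CPM.

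**Figure D2:**
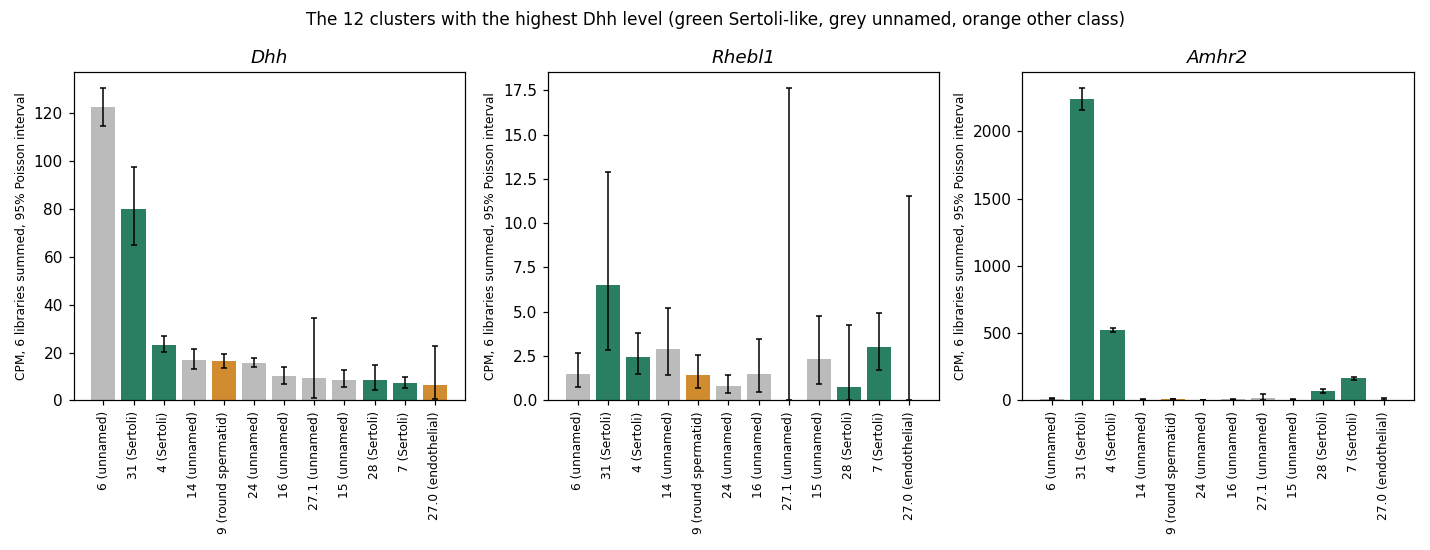
Level of Dhh, of the overlapping gene Rhebl1 and of Amhr2 (CPM, 6 libraries summed, bars from 0 on linear axes, with 95% Poisson intervals that cover counting error only) in the 12 clusters with the highest Dhh level. Cluster 6, which is unnamed, has the tallest Dhh bar at 122 CPM, while its Rhebl1 and Amhr2 bars are low.

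Kitl encodes the ligand that KIT-bearing germ cells depend on (ENSMUSG00000019966, chr10:100015630-100100416, plus strand). Its Sertoli-like level was 20.1, 23.6 and 21.3 CPM in controls and 16.9, 13.4 and 37.4 CPM in smoking libraries. Endothelial-like barcodes stood far above that at 197, 144 and 190 CPM in controls and 156, 142 and 248 CPM in smoking libraries, and mesenchymal-like barcodes lay between 71.3 and 137 CPM. Endothelial-like barcodes exceeded mesenchymal-like ones in 6 of 6 libraries, and the peritubular myoid-like mean, 106 ± 104 CPM, spread too widely to be placed. The endothelial-like class holds a cluster of 49 barcodes that also passed 6 of 8 peritubular myoid markers, where Kitl was at 177 CPM over 6 libraries, and 44 barcodes that passed endothelial markers only, where it was at 153 CPM. Leydig-like barcodes held 2 Kitl UMIs. The Sertoli-like class, the larger by far, still held 43.1% of all 756 Kitl UMIs.

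Fshr, the receptor of follicle stimulating hormone (ENSMUSG00000032937, chr17:88984952-89200675, minus strand), was barely read. In all there were 7 UMIs, of which 6 lay in Sertoli-like barcodes, 4 of these in the 63 barcodes of the deepest Sertoli-like cluster, and 1 in an unnamed barcode. The Sertoli-like class held 0, 0 and 1.08 CPM in controls and 0, 0.228 and 1.07 CPM in smoking libraries. Too few UMIs were captured to compare groups, and Fshr passed the filter on low counts in no comparison.

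Amhr2 (ENSMUSG00000023047, chr15:102445367-102454633, plus strand), whose ligand Amh is a hormone of immature Sertoli cells, gave the most UMIs of the 9, 9645 in all. In Sertoli-like barcodes it stood at 453, 426 and 491 CPM in controls and 411, 497 and 771 CPM in smoking libraries. Leydig-like barcodes held 192, 124 and 229 CPM in controls and 149, 198 and 209 CPM in smoking libraries. The 2 ranges did not overlap, and no other named class averaged over 11.4 CPM, the macrophage-like mean. Thinned to 1500 UMIs, 33.9% of Sertoli-like, 11.6% of Leydig-like and 0.789% of round spermatid-like barcodes held a UMI. The ligand itself gave 36 UMIs in Sertoli-like barcodes, at 2.37 ± 1.61 CPM, and none in Leydig-like ones.

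Gata4, a zinc finger factor of gonadal somatic cells (ENSMUSG00000021944, chr14:63198922-63271692, minus strand), had no clear leading class. Leydig-like barcodes stood at 36.6, 7.73 and 29.4 CPM in controls and 20.5, 42.8 and 43.9 CPM in smoking libraries. Mesenchymal-like barcodes averaged 25.9 ± 18.3 CPM and exceeded the Leydig-like ones in 3 of 6 libraries, so the order of these neighbours was not resolved. The Sertoli-like level was 11.8, 8.01 and 11.6 CPM in controls and 11.7, 10.2 and 19.8 CPM in smoking libraries, with 47.4% of the 392 UMIs. These classes differ in depth. The deepest Sertoli-like cluster averaged 55.2 ± 18.8 CPM and the deep Leydig-like barcodes 39.7 ± 13.7 CPM.

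Wt1, the Wilms tumour factor (ENSMUSG00000016458, chr2:105126529-105173616, plus strand), had its highest class mean in endothelial-like barcodes, at 240, 133 and 194 CPM in controls and 108, 219 and 171 CPM in smoking libraries. These rest on 195 UMIs in 93 barcodes, 7 to 27 per library. The class is mixed: 49 of the barcodes formed a cluster that passed 6 of 8 peritubular myoid, 2 of 9 mesenchymal and 2 of 9 macrophage markers beside 8 of 8 endothelial ones, and the other 44 passed endothelial markers only. Over 6 libraries Wt1 stood at 188 CPM in the first cluster and 181 CPM in the second. In those barcodes Sox9 was at 0 of 1050003 UMIs and Amhr2 at 2.91 ± 3.36 CPM. Sertoli-like barcodes held 41.1, 38.3 and 57.8 CPM in controls and 40.7, 46.0 and 70.0 CPM in smoking libraries, below the endothelial-like level in 6 of 6 libraries. The 63 barcodes of the deepest Sertoli-like cluster, at 281 CPM, lay above it. Wt1os, the antisense neighbour of Wt1, which shares no bases with it in this annotation, was at 18.2 ± 3.23 CPM in Sertoli-like and 4.86 ± 5.48 CPM in endothelial-like barcodes.

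Sox9, the factor that starts Sertoli cell fate (ENSMUSG00000000567, chr11:112782224-112787760, plus strand), had the simplest pattern. Its Sertoli-like level was 43.7, 39.6 and 41.5 CPM in controls and 36.8, 32.5 and 63.6 CPM in smoking libraries, all above the highest mesenchymal-like library at 26.5 CPM. Leydig-like barcodes held 2 UMIs, and endothelial-like and macrophage-like barcodes none. Sertoli-like barcodes held 80.5% of its 809 UMIs.

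**Figure D3:**
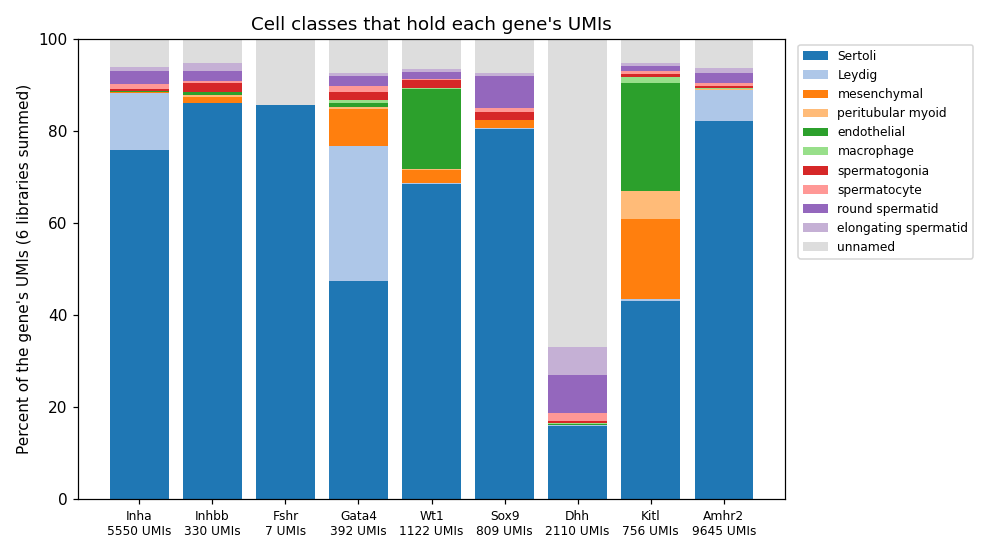
Share of each gene's UMIs (percent, 6 libraries summed) held by 10 named classes and by unnamed barcodes, with the number of UMIs under each bar. Sertoli-like barcodes hold most UMIs of Inha, Inhbb, Fshr, Wt1, Sox9 and Amhr2, and the Dhh bar is mostly unnamed.

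The Sertoli-like class was itself uneven, and the genes moved together within it. It was made of 63 barcodes with a median of 18750 UMIs, of clusters of 2285 and 2222 barcodes with medians of 2787 and 2249 UMIs, and of 74 barcodes that also carried elongating spermatid markers. For Amhr2 the mean level of 6 libraries fell from 2202 ± 195 CPM in the deep cluster to 525 ± 79.3 and 169 ± 23.6 CPM in the low-UMI clusters, and was 60.6 ± 36.6 CPM in the cluster with spermatid markers. Inha stood at 1112 ± 159, 298 ± 48.1, 84.7 ± 8.42 and 52.6 ± 26.3 CPM in the same order. Each of the 8 genes other than Fshr kept that order of the first 3 clusters in its means.

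Sox9 showed the largest ratio of the 8 genes between the deep and the larger low-UMI cluster, with 318 ± 44.2 CPM in the deep cluster and 28.8 ± 4.60 CPM in the larger low-UMI cluster. Wt1 stood at 279 ± 53.0 and 43.2 ± 7.82 CPM, Inhbb at 109 ± 32.2 and 16.1 ± 5.44 CPM, and Kitl at 124 ± 43.0 and 18.1 ± 5.04 CPM. Gata4 stood at 55.2 ± 18.8 and 12.1 ± 4.32 CPM, and Dhh at 76.2 ± 18.2 and 23.3 ± 3.31 CPM. The protamine and transition protein transcripts Prm1, Prm2, Tnp1 and Tnp2, which belong to elongating spermatids, made up 1.93% of UMIs in the deep cluster, 8.12% and 10.1% in the low-UMI clusters and 23.8% in the cluster with spermatid markers. In all retained barcodes they made up 12.8% of UMIs. The part of these transcripts in the levels was not tested.

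Leydig-like barcodes split likewise. The clusters of the deep barcodes passed 9 of 9 Leydig cell markers and also 3 of 12 Sertoli cell markers (Clu, Ctsl and Defb19), 2 of 8 peritubular myoid and up to 3 of 9 mesenchymal markers. Their part in the levels was not tested. In 140 deep barcodes Inha stood at 309 ± 94.2 CPM, Amhr2 at 247 ± 26.6 CPM and Gata4 at 39.7 ± 13.7 CPM, and in 264 low-UMI barcodes at 40.6 ± 21.2, 39.8 ± 22.0 and 4.52 ± 4.05 CPM. The 4 spermatid transcripts made up 1.16% of UMIs in the deep Leydig-like barcodes and 10.7% in the low-UMI ones. The deep Leydig-like barcodes held no UMI of Inhbb, Fshr or Sox9.

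**Figure D4:**
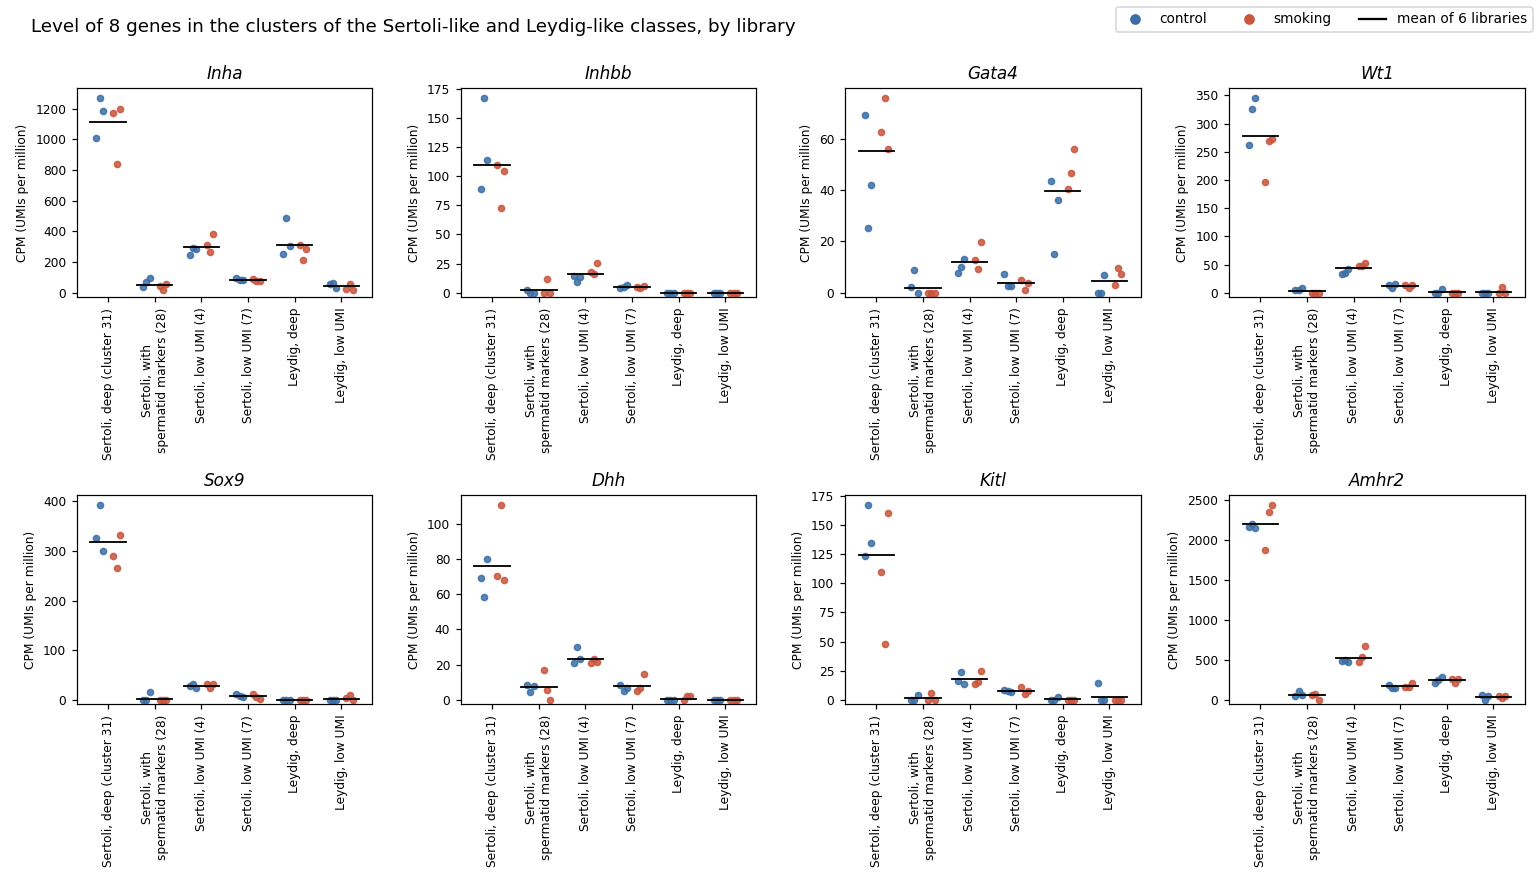
Level of 8 genes (CPM, linear axis) in the 4 clusters of the Sertoli-like class and in deep and low-UMI Leydig-like barcodes. Points are libraries (blue control, red smoking) and lines the mean of 6. Every gene has its highest mean in the deep Sertoli-like cluster, cluster 31, which holds 63 barcodes, 5 to 14 per library.

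Genes whose level ran most like each member over 48 sums of 8 classes by 6 libraries, among 9603 genes, are given by Pearson's r of log2 CPM, as a description. The sums share libraries and differ in depth, and they leave out the endothelial-like class, where Wt1 and Kitl had their highest means, and the peritubular myoid-like class, both under 20 barcodes in some library. Clu, the secreted chaperone clusterin, was the nearest to Inha (r = 0.92) and to Amhr2 (r = 0.92), followed by Defb19 and Serpina5 for Inha and Sept6 and Sdsl for Amhr2. Inhbb ran most like Tmem114 (r = 0.87), Atp1b1 and Cldn11, a tight junction gene of the blood-testis barrier. Sox9 was nearest to Atp1b1 (r = 0.85), Qpct and Wt1, and Wt1 to Hspb1 (r = 0.90), Hopx and Fbln1. Gata4 ran most like Syne2 (r = 0.87), 1500009L16Rik and Fxyd6, and Kitl like Tuba1a (r = 0.88) and Myl9. Dhh, nearest to Tmsb15b2 (r = 0.75), Alas2 and Wfdc10, had the weakest match of the 8 genes with more than 6 UMIs in these sums, and its unnamed cluster was outside them. With 6 UMIs there, the nearest genes of Fshr (Alas2, Qpct and 4933402E13Rik) mean little.

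Receptors and targets of the ligands came from lists of partner genes and are named here after their values were seen. Their levels were higher in other classes than in the Sertoli-like class as a whole. Ptch1, the hedgehog receptor and a target of the pathway, stood at 64.6 ± 28.03 CPM in mesenchymal-like, 26.2 ± 11.4 CPM in Leydig-like and 2.32 ± 1.52 CPM in Sertoli-like barcodes (SD, n = 6). In the deepest Sertoli-like cluster Ptch1 was at 17.2 ± 11.0 CPM, on 23 UMIs. Gli1, another target, was at 26.4 ± 12.0 CPM in mesenchymal-like barcodes and at 1 UMI each in the Leydig-like and Sertoli-like classes. Kit, the receptor of the Kitl product, stood at 152 ± 51.4 CPM in Leydig-like and 93.5 ± 12.2 CPM in spermatogonia-like barcodes. Tgfbr3, the inhibin co-receptor betaglycan, stood at 163 ± 16.6 CPM in mesenchymal-like and 84.2 ± 23.7 CPM in Leydig-like barcodes, and at 2.47 ± 1.39 CPM in Sertoli-like ones.

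Between smoking and control libraries none of the members that could be tested passed the test, of which there were 8 in Sertoli-like barcodes, 3 in Leydig-like, 1 in stromal-like and 8 in all retained barcodes. Fshr could not be tested. In Sertoli-like barcodes edgeR's quasi-likelihood test (adjusted p under 0.05) called 0.00934% of 10702 genes, which was 1 gene, and 0 of the 8 members that could be tested. That gene, Scgn, a calcium-binding protein gene and no member, was lower (log2 fold change -2.30, edgeR adjusted p = 0.0155). Without any 1 of control 2, control 3, smoking 1 or smoking 2 no gene was called, and without smoking 3 there were 6. Of the members 6 had a positive and 2 a negative log2 fold change, with a median of 0.12 beside -0.0035 over all genes tested. None of the 8 kept its control and smoking libraries apart, which 10.5% of all genes tested did.

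Amhr2 had a log2 fold change of 0.22 (SE 0.16, 95% interval -0.12 to 0.57, edgeR adjusted p = 0.971) in Sertoli-like barcodes, and Inha of 0.13 (SE 0.16, interval -0.22 to 0.48, adjusted p = 0.977). For Sox9 it was -0.02, with an interval of -0.44 to 0.41, and for Wt1 0.10, with an interval of -0.31 to 0.51. The remaining folds were 0.20 for Inhbb, 0.28 for Gata4, 0.05 for Dhh and -0.10 for Kitl. The widest of the 8 intervals, those of Gata4 and Kitl, ran from -0.31 to 0.87 and from -0.72 to 0.52, so changes within those bounds were not excluded.

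Smoking library 3 was the highest of the 6 in Sertoli-like barcodes for each of the 8 genes. Its Sertoli-like UMIs came to 13.3% from the deep cluster, against 5.32% to 8.85% in the other libraries, and held 6.56% of the 4 spermatid transcripts, against 9.46% to 11.5%. The cluster with spermatid markers gave 20.7%, 10.3% and 8.94% of Sertoli-like UMIs in controls and 7.55%, 3.87% and 0.988% in smoking libraries, so these shares did not overlap. Without that cluster the fold changes of the 8 genes kept their signs, with 0.16 for Amhr2 and 0.09 for Inha. Without smoking library 3 the log2 fold change was -0.09 for Inha, -0.01 for Amhr2 and -0.08 for Wt1, and for Kitl it was -0.55 (SE 0.20, edgeR adjusted p = 0.912). Within the deep cluster alone its Inha level was 1199 CPM among 840 to 1271 CPM in the others, and its Amhr2 level 2443 CPM among 1878 to 2360 CPM. In the larger low-UMI cluster the groups of 2 of the 8 members did not overlap, both higher in smoking libraries, where 9.99% of the genes tested in the Sertoli-like class kept the groups apart. Wt1 stood there at 33.0, 35.2 and 42.3 CPM in controls and 48.2, 47.8 and 52.7 CPM in smoking libraries, and Inhbb at 14.3, 9.02 and 13.9 CPM and at 17.8, 16.1 and 25.4 CPM. Over both low-UMI clusters, an alternative added after the values were seen, the log2 fold change was 0.33 for Wt1 (SE 0.18) and 0.48 for Inhbb (SE 0.27), each with an edgeR adjusted p of 1.00. In the deep cluster, tests of the 8 genes were added after the values were seen. Their exact two-sided permutation p lay between 0.3 and 1.0, where 3 libraries against 3 cannot give less than 0.1. The deep cluster held 13, 7 and 12 barcodes in controls and 5, 14 and 12 in smoking libraries. All are under the number per library required for the edgeR comparisons, so these levels and p-values rest on few barcodes.

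**Figure D5:**
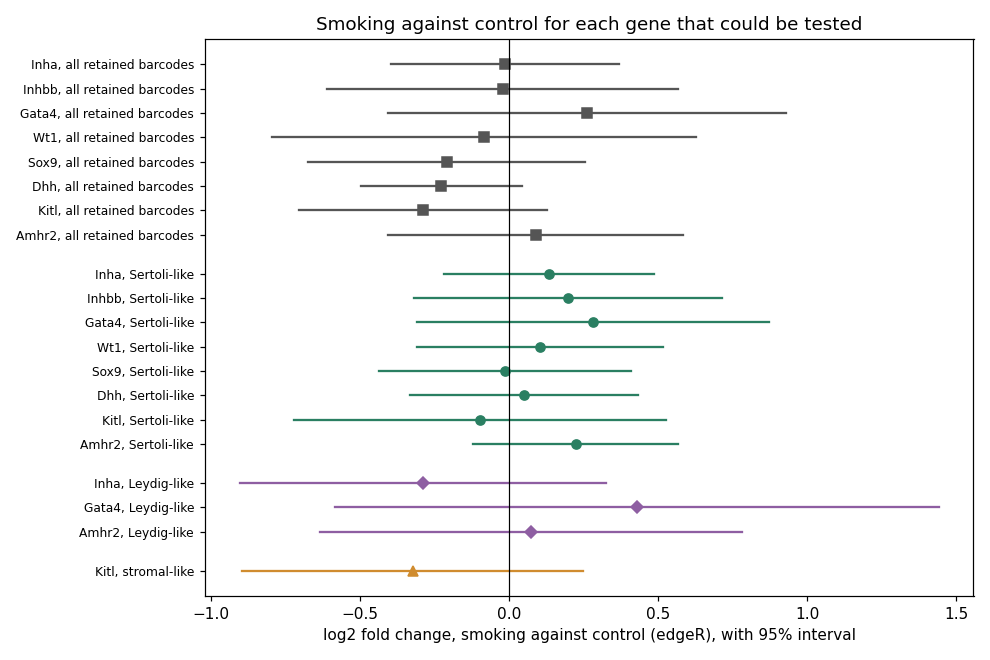
Log2 fold change of smoking against control from edgeR, with 95% intervals, for each gene that passed the filter on low counts in all retained barcodes, Sertoli-like, Leydig-like and stromal-like barcodes. All 20 intervals include 0.

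In Leydig-like barcodes edgeR called 0% of 6625 genes (46 had an unadjusted p under 0.05, and DESeq2 called 2 and limma-voom 0), and 3 members could be tested. Inha had a log2 fold change of -0.29 (SE 0.28, 95% interval -0.91 to 0.33, edgeR adjusted p = 1.00), Gata4 of 0.43 (interval -0.59 to 1.44) and Amhr2 of 0.07 (interval -0.63 to 0.78). The lowest control library of Inha, 224 CPM, lay above the highest smoking library, 216 CPM. That was 1 of 3 members, where 5.42% of all genes tested kept the groups apart. In the deep Leydig-like barcodes alone the Inha groups overlapped, at 255, 488 and 307 CPM in controls and 309, 215 and 282 CPM in smoking libraries, where the 488 CPM of control 2 came from 4 barcodes. Deep barcodes gave 84.3%, 50.7% and 76.7% of Leydig-like UMIs in controls and 46.5%, 89.8% and 75.2% in smoking libraries. The low-UMI barcodes numbered 26, 25 and 35 in controls and 94, 39 and 45 in smoking libraries.

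In stromal-like barcodes edgeR called 0% of 4963 genes (166 had an unadjusted p under 0.05, and DESeq2 and limma-voom called 0). Kitl was the only member tested, at 92.4, 157 and 119 CPM in controls and 76.3, 102 and 114 CPM in smoking libraries. Its log2 fold change was -0.32 (SE 0.26, 95% interval -0.90 to 0.25, edgeR adjusted p = 0.991), and the groups overlapped, which they did not for 9.27% of genes tested. Amhr2 was under the filter with 14 UMIs in all, too few to compare the groups. It lay between 0 and 4.25 CPM in controls and between 9.08 and 19.3 CPM in smoking libraries. The 9.27% is of genes tested and does not cover Amhr2.

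The smoking effect was also compared between classes within libraries, with limma. For Sertoli-like against Leydig-like barcodes 0% of 6115 genes differed (99 at an unadjusted p under 0.05), and the difference was 0.43 for Inha (95% interval -0.32 to 1.17), -0.42 for Gata4 (-1.46 to 0.61) and 0.06 for Amhr2 (-1.10 to 1.22) on the log2 scale. For Sertoli-like against stromal-like barcodes 0% of 4494 genes differed (269 at an unadjusted p under 0.05), and the difference for Kitl was 0.19 (-0.66 to 1.04). These intervals are wide, and differences between classes within them were not excluded.

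Over all retained barcodes edgeR called 0% of 18860 genes (2805 had an unadjusted p under 0.05, and DESeq2 called 321, of which 294 higher, and limma-voom 0), with 0 of the 8 tested members called by any of them. Among the 8, Dhh and Kitl were the ones whose groups did not overlap, both lower in smoking libraries, where 28.9% of all genes tested kept the groups apart. Dhh stood at 9.18, 8.93 and 8.39 CPM in controls and 7.53, 6.82 and 5.49 CPM in smoking libraries (log2 fold change -0.23, SE 0.12, 95% interval -0.50 to 0.04, edgeR adjusted p = 0.403). Kitl stood at 3.26, 3.39 and 3.03 CPM and at 2.15, 2.93 and 1.86 CPM (log2 fold change -0.29, SE 0.18, interval -0.71 to 0.13, edgeR adjusted p = 0.488). In bulk sums, fewer cells of a type and less RNA per cell cannot be told apart.

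The make-up of the libraries differed between the groups as well, and its part in these sums was not tested. Elongating spermatid-like barcodes held 11.5%, 8.11% and 24.2% of UMIs in controls and 27.8%, 29.2% and 38.6% in smoking libraries. The unnamed cluster rich in Dhh held 3.33%, 3.74% and 3.02% of UMIs in controls and 2.48%, 2.70% and 1.31% in smoking libraries. Of retained barcodes it held 4.68%, 5.09% and 6.14% in controls and 5.28%, 5.27% and 3.60% in smoking libraries, and these shares overlapped. Inside that cluster the Dhh groups overlapped, with means of 119 ± 7.11 CPM in controls and 132 ± 36.01 CPM in smoking libraries (exact two-sided permutation p = 0.6, adjusted 0.655 over 12 added tests). In Sertoli-like barcodes they overlapped too. Outside the cluster they did not, as for 29.0% of the genes tested, with 5.02 ± 0.295 and 4.01 ± 0.544 CPM (exact permutation p = 0.1, the smallest possible, adjusted 0.4).

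The share of each gene's UMIs that Sertoli-like barcodes held did not differ detectably between the groups. For Amhr2 it was 82.3% ± 2.91 (SD, n = 3) in controls and 82.4% ± 0.921 (SD, n = 3) in smoking libraries, and for Inha 76.6% ± 5.37 and 76.0% ± 3.72. Dhh, with 14.1%, 14.9% and 15.0% in controls, ranged from 11.5% to 26.2% in smoking libraries. Over the 8 genes with a value in every library the exact two-sided permutation p lay between 0.4 and 1.0, and each was 1.0 after adjustment.

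Partner genes gave no call either. Of 14 inhibin and activin genes 5 could be tested in Sertoli-like barcodes, of 10 AMH and BMP receptor genes 4, of 14 FSH signalling genes 9, of 13 hedgehog genes 2, of 8 KIT signalling genes 5 and of 18 gonadal transcription factors 10. None passed edgeR's test in either direction, there or in Leydig-like, stromal-like or all retained barcodes. The list medians in Sertoli-like barcodes ran from -0.15 for the inhibin and activin genes to 0.13 for the FSH signalling genes on the log2 scale. The smallest unadjusted p there belonged to Nr0b1, a nuclear receptor of Sertoli and Leydig cells, with a log2 fold change of 0.30 (SE 0.16, edgeR adjusted p = 0.971). Over all barcodes it belonged to Acvr2b, an activin receptor, at -0.52 (SE 0.20, edgeR adjusted p = 0.300), and Zfpm2, a GATA cofactor, followed at -0.49 (SE 0.19, edgeR adjusted p = 0.300). In Leydig-like barcodes Kit had a log2 fold change of 0.09 (SE 0.38), and in stromal-like barcodes Ptch1 of 0.12 (SE 0.38).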

How the data were processed

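Single-cell RNA libraries of 3 control and 3 smoking samples were read as deposited UMI counts per gene and barcode, made by the authors with Cell Ranger (3.1.0 per the file headers, 7.1.0 per the submitters' processing notes, which also list CASAVA 1.8 and mm10). The labels' protocols describe 3′ libraries of cells from which dead cells had been removed. No source used here states whether counting used strand. Every deposited barcode held at least 1554 UMIs.

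Barcodes over 20% mitochondrial UMIs (2459) or scored as doublets against simulated doublets (3935) were left out. The mitochondrial limit took 313, 237 and 278 barcodes in controls and 524, 542 and 565 in smoking libraries. Retained Sertoli-like barcodes had a median mitochondrial share of 6.00%, and their deepest cluster 11.8%, against 0.338% in all retained barcodes. No other limit was run, and its part in the comparisons was not tested. The rest were clustered (2000 variable genes, 30 components, 20 neighbours, Leiden resolution 1, leidenalg 0.10.2, scikit-learn 1.9.0, Python 3.11.15) without the 9 genes and the genes of their partner lists (86 in all) and without mitochondrial and ribosomal protein genes. A class was named from at least 3 markers. CPM is UMIs of the gene per 1000000 UMIs of the class. Intervals and floors (3 counts) cover counting error only.

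Counts summed per library and class were compared with edgeR 4.0.16 (quasi-likelihood, TMM, R 4.3.3) over all genes past its filter on low counts, with Benjamini-Hochberg adjustment, where each library held at least 20 barcodes. The model was also run on simulated counts with changes larger than the member fold changes given here. That run does not show whether changes of their size would be found. Differences between classes used limma 3.58.1 on paired log2 CPM with a prior count of 1. Exact permutation tests were two-sided over 20 assignments, and those in the deep Sertoli-like cluster used fewer barcodes per library than the edgeR limit. Alternatives were DESeq2 1.42.0, limma-voom, no filter, doublets kept, Leiden resolution 2, a prior count of 5, other thinning, and each library left out.

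Genes named are the 9 members, the 3 most like each in pattern, and up to 3 partner genes per list with the smallest p, of which some are printed. A few genes that these rules name are not reported here. The members and lists were chosen with earlier results of these data known. Coordinates are from GENCODE (mm10), and promoter sequences from RefSeq (GRCm38.p6).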

Additional observations from a re-analysis of the deposited data

How the results depend on the processing

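Over 268 member fold changes under the alternatives, 39 changed sign and 0 passed the threshold (smallest adjusted p 0.202, edgeR, DESeq2 or limma). Counts of genes called did move. Over all barcodes DESeq2 called 321 and edgeR without a filter 3. In Sertoli-like barcodes no filter gave 52, doublets kept 9 and, added after the values were seen, the low-UMI clusters alone 2. In Leydig-like barcodes DESeq2 gave 2 and no filter 8, and in stromal-like barcodes no filter gave 33. Leaving out 1 library gave 0 to 7 calls over all barcodes (7 without smoking 3), 0 to 6 in Sertoli-like (6 without smoking 3), 0 to 1 in Leydig-like and 0 to 6 in stromal-like barcodes (6 without smoking 3).

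With doublets kept, log2 folds in Sertoli-like barcodes became -0.0185 for Inha, -0.0848 for Inhbb, -0.035 for Gata4 and -0.12 for Wt1, Amhr2 in Leydig-like barcodes -0.0621, the Kitl difference from stromal-like barcodes -0.13, and Inha over all barcodes 0.0123. In the low-UMI clusters alone Sox9 became 0.0234 and Dhh -0.0855. With DESeq2 over all barcodes Inha became 0.0158 and Inhbb 0.0081. The cause was not tested.

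Without 1 library, Sertoli-like log2 folds ran from -0.0939 to 0.29 for Inha, -0.0673 to 0.39 for Inhbb, -0.0803 to 0.32 for Wt1, -0.28 to 0.17 for Sox9, -0.0066 to 0.14 for Dhh, -0.55 to 0.21 for Kitl and -0.0087 to 0.37 for Amhr2. Over all barcodes they ran from -0.25 to 0.10 for Inha, -0.27 to 0.12 for Inhbb, -0.0852 to 0.41 for Gata4, -0.54 to 0.12 for Wt1 and -0.26 to 0.28 for Amhr2. In Leydig-like barcodes Amhr2 ran from -0.11 to 0.31. The difference from Leydig-like barcodes ran from -0.71 to 0.0278 for Gata4 and -0.12 to 0.27 for Amhr2, and that from stromal-like barcodes from -0.0754 to 0.52 for Kitl.

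The share of Sertoli-like barcodes with a UMI, as a mean of libraries, rose with depth by construction. Thinned to 3000 UMIs it was 48.9% for Inha, 5.58% for Inhbb, 0.0809% for Fshr, 3.63% for Gata4, 13.6% for Wt1, 9.21% for Sox9, 6.80% for Dhh, 6.84% for Kitl and 63.0% for Amhr2. Without thinning it was 35.3%, 4.28%, 0.134%, 3.46%, 8.89%, 6.45%, 5.82%, 4.57% and 48.4% in that order. With doublets kept, Sertoli-like barcodes held 80.2% of Amhr2 UMIs. The class with the highest level changed in 2 of 72 cases, both Gata4 (mesenchymal-like without control 1 or smoking 3). No paired analysis was possible because the labels give no replicate numbers that tie control to smoking libraries.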

Other observations

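Other gonadal transcription factors, from a list chosen with earlier results known and named after their values were seen, also had their highest levels in different classes. Rhox8, an androgen-regulated homeobox gene of Sertoli cells, stood at 404 ± 71.5 CPM (SD, n = 6) in Sertoli-like and 7.46 ± 5.49 CPM in Leydig-like barcodes. Nr0b1 stood at 51.6 ± 9.60 CPM in Sertoli-like and 11.0 ± 9.49 CPM in Leydig-like barcodes, and Nr5a1, the steroidogenic factor, at 16.6 ± 5.07 and 99.4 ± 27.5 CPM. Gata6 stood at 35.8 ± 8.46 CPM in Leydig-like barcodes and at 18.3 ± 4.61 CPM in Sertoli-like ones. Dmrt1, which acts in both germ and Sertoli cells, was higher in spermatogonia-like barcodes (187 ± 20.4 CPM) than in Sertoli-like ones (16.7 ± 4.08 CPM). Tcf21, a factor of interstitial mesenchyme, stood at 219 ± 26.5 CPM in mesenchymal-like barcodes. These levels are descriptions, with no test.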
